A study of Arabidopsis thaliana with 14 samples.

Results

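The effect of the rrm1 mutation was measured in Arabidopsis thaliana seedlings that already carried the pdp1, pdp2 and pdp3 mutations. The quadruple mutant pdp1/2/3;rrm1 was set against pdp1/2/3, with 2 libraries in each group, so that these 4 of the 14 libraries of the series answer the question and all 32548 genes of their table are its members. In the submitters' genotype labels pdp1/2/3;rrm1 is homozygous for pdp1, pdp2, pdp3 and rrm1, and pdp1/2/3 is homozygous for the same pdp alleles, which both groups therefore carry. As a second setting for the same mutation, rrm1 was set against Col-0, the wild type, again with 2 libraries each and with no library in common with the first pair. All 8 libraries came from whole seedlings aged 11 days, grown on MS plates with 16 h of light at 23 °C and 8 h of dark at 21 °C. RNA from 1 g of tissue was extracted with Trizol and read as single ends of 50 nt. The kind of allele at each locus is not given in the sources used here. Whether the 2 libraries of a group came from separate cultures is not given either, so a p-value here covers the spread among libraries only, which may be technical.

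PDP1, PDP2 and PDP3 are proteins with a PWWP domain, a fold that binds chromatin, and they are known to act with FVE, a histone-binding protein. FVE belongs to the autonomous pathway, which promotes flowering by repressing FLOWERING LOCUS C (FLC), and the study asked about its role in RNA-directed DNA methylation. FLC and its relatives MAF1 to MAF5 are MADS-box repressors of flowering that act on the integrators SOC1 and FT. The reference annotation links the names PDP1, PDP2, PDP3 and RRM1 to no gene identifier, so the levels of the mutated genes were not analysed here.

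Levels are given as CPM, the deposited adjusted counts per 1e+06 of the table's mean library total, and a log2 difference is the mean of log2(CPM + 1) in the first group minus that in the second, ± its standard error (SE). A gene was called at a limma adjusted p below 0.05 over the 19241 genes that reached 1 CPM in no fewer than 2 of the 8 libraries. Totals per library were 18609045 to 19534578 adjusted counts, and 1 count was 0.0520 CPM. Libraries of the same group correlated across genes at a Pearson's r of 0.994 to 0.996. Values between 0.5 and 10 lay within 0.2 of a whole number for at least 99.8% of genes in 6 libraries, but for 90% in replicate 1 of pdp1/2/3;rrm1 and 72.8% in replicate 1 of rrm1. Markers of green leaf and of root were at similar levels in the groups: the 24 photosynthesis genes summed to 125600 and 128500 CPM in pdp1/2/3;rrm1 and to 123000 and 125700 CPM in pdp1/2/3, and the 9 root markers to 166 and 169 CPM in pdp1/2/3;rrm1 and 165 and 184 CPM in pdp1/2/3.

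In pdp1/2/3;rrm1 against pdp1/2/3, 570 genes (2.96%) were called, 276 higher (1.43%) and 294 lower (1.53%). The changes were mostly small. The median size among called genes was 0.56 on the log2 scale, and 37 genes rose and 30 fell by at least 2-fold in level plus 1. At an unadjusted p below 0.05 there were 3057 genes. The count rested most on replicate 1 of the quadruple mutant: without it 182 genes were called, of which 167 were among the 570, against 475 without replicate 2. Of the 294 genes called lower, 192 (65.3%) were lower in replicate 1 of the quadruple mutant than in its replicate 2, as were 112 of the 276 called higher (40.6%) and 9433 of all tested genes (49%). Both quadruple-mutant libraries lay above both pdp1/2/3 libraries for 22.1% of tested genes and below both for 20.9%, the background for any gene below whose groups did not overlap. In rrm1 against Col-0, 775 genes were called (4.03%), 527 higher (2.74%) and 248 lower (1.29%). This count, on which the overlaps rest, depended on the libraries in the fit: it was 206 and 239 without replicates 3 and 4 of Col-0, 315 and 342 without replicates 1 and 2 of rrm1, and 1234 and 1224 without replicates 1 and 2 of pdp1/2/3.

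The 2 comparisons share no library, but they were tested in the same fit. Each gene's variance estimate was therefore common to both, so their calls are not independent and the overlaps are a description only. The log2 differences themselves do not use that estimate. Of the genes called higher in pdp1/2/3;rrm1 against pdp1/2/3, 126 were also called higher in rrm1 against Col-0, which is 45.7% of the 276 and 23.9% of the 527. Of those called lower, 57 were called lower in both, which is 19.4% of the 294 and 23% of the 248, and 4 genes had opposite calls. The difference in rrm1 against Col-0 was positive for 255 of the 276 genes called higher (92.4%), where 51.9% of all tested genes were positive, and negative for 190 of the 294 called lower (64.6%), where 48% of all tested genes were negative. The difference between the rrm1 effects in the 2 backgrounds was itself called for 58 genes (0.301%), 15 positive (0.078%) and 43 negative (0.223%), among them 4 of the 276 and 24 of the 294. Of the 21 such genes named here, 18 lost this call without replicate 3 of Col-0 and 17 without replicate 2 of rrm1.

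**Figure D1:**
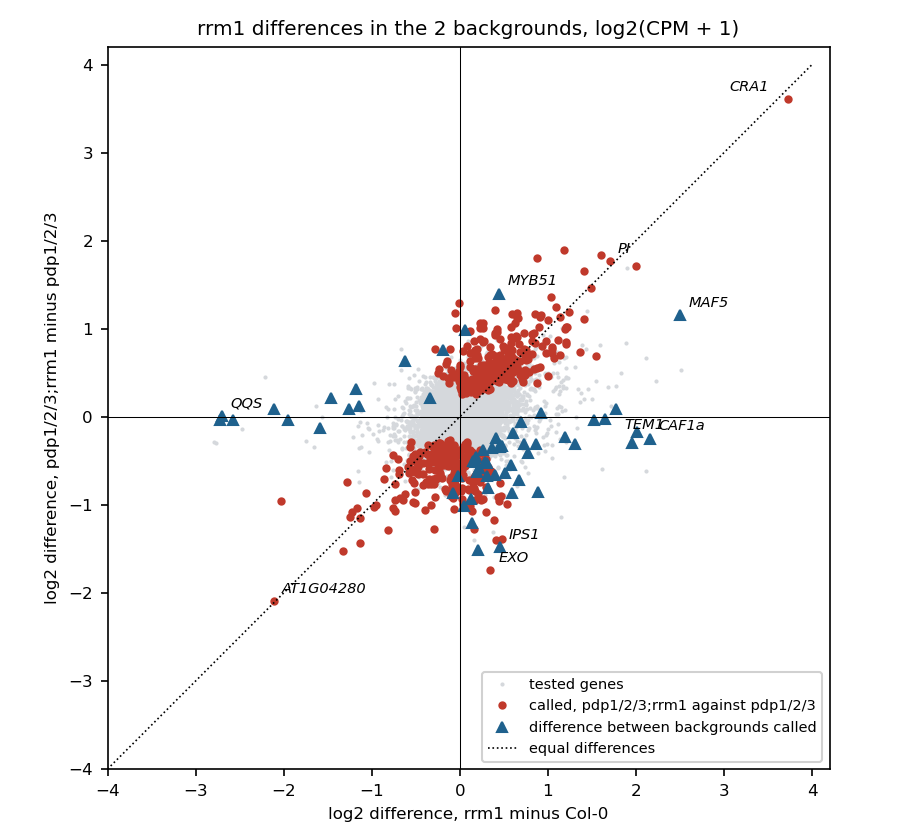
Each point is 1 of the 19241 tested genes, with its log2 difference in pdp1/2/3;rrm1 against pdp1/2/3 (vertical) and in rrm1 against Col-0 (horizontal); red points were called in the vertical comparison, blue triangles are the 58 genes whose difference between backgrounds was called, and the dotted line marks equal differences. CRA1, PI and AT1G04280 lie near the line, QQS, TEM1 and CAF1a lie near 0 on the vertical axis, and IPS1 and EXO lie low on it with small horizontal differences.

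The gene with the highest difference among those called with a mean of at least 5 CPM encodes a seed protein. CRA1 (AT5G44120; chromosome 5, 17756238 to 17758336, minus strand, TAIR10.1), the 12S cruciferin stored in the embryo, had 16.9 and 10.6 CPM in pdp1/2/3;rrm1, against 0.262 and 0.103 CPM in pdp1/2/3. Both quadruple-mutant libraries lay far above both pdp1/2/3 libraries, in which the gene was close to the level that 3 counts give (0.156 CPM). The log2 difference was 3.61 ± 0.27 (adjusted p = 6.04e-05), beside 3.72 in rrm1 against Col-0 (adjusted p = 3.05e-05), and the difference between backgrounds was -0.12 (adjusted p = 0.942). CRA1 was the only one of 3 tested seed storage genes to be called, where 1.43% of all tested genes were called higher. CRU3, another cruciferin, had 4.56 CPM in replicate 1 of the quadruple mutant and 0.000763 CPM in replicate 2, and was listed at 0.0523 and 0 CPM in pdp1/2/3, and the other 9 of the 12 listed members did not reach the level filter.

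The 250 bases before the annotated start of CRA1 are shown because the RY element CATGCA, a motif known from seed storage promoters, occurs 2 times in them (capitals). Over all 19240 tested genes with such a window, 7.6% held the motif on either strand, and so did 7.97% of the genes called higher and 9.52% of those called lower. The sequence is chr5:17758337-17758586, minus strand, 5′ to 3′, from the RefSeq genome TAIR10.1.
CRA1: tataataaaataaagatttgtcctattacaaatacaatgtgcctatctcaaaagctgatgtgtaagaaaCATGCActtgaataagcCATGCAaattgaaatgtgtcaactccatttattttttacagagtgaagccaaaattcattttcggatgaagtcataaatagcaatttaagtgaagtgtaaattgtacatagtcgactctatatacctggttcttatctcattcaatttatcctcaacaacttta

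Several genes outside seed storage had the same kind of pattern, higher by rrm1 in both backgrounds. PISTILLATA (PI), the MADS-box gene that specifies petals and stamens, had 5.07 and 4.74 CPM in pdp1/2/3;rrm1, against 0.734 and 0.725 CPM in pdp1/2/3. The groups did not overlap (log2 difference 1.77 ± 0.16, adjusted p = 0.000207), and the value in rrm1 against Col-0 was 1.70 (adjusted p = 0.00024). PI was the only floral homeotic gene called of 3 tested, where 1.43% of all tested genes were called higher. SEP3, a MADS-box partner of the floral organ genes, had 5.07 and 4.90 CPM in pdp1/2/3;rrm1 and 2.73 and 3.42 CPM in pdp1/2/3, which did not pass (adjusted p = 0.134). MBP1, a myrosinase-binding protein, had 27.6 and 19.2 CPM in pdp1/2/3;rrm1, against 4.25 and 6.995 CPM in pdp1/2/3 (log2 difference 1.89 ± 0.20, adjusted p = 0.000579; 1.19 in rrm1 against Col-0, adjusted p = 0.0073). PR4, a chitin-binding pathogenesis-related protein, had 224 and 212 CPM in pdp1/2/3;rrm1, against 103 and 99.9 CPM in pdp1/2/3, and LSH10, of the ALOG family of nuclear proteins, had 26.1 and 23.3 CPM, against 11.7 and 11.7 CPM. In both genes the groups stood apart by more than 2-fold (log2 differences 1.096 ± 0.08 and 1.02 ± 0.10, adjusted p = 5.98e-05 and 0.000443), with like values in rrm1 against Col-0 (1.00 and 1.20). The transporter genes SUC5, for sucrose, and OPT9, of the oligopeptide transporter family, were named after their values were seen. SUC5 had 4.91 and 4.17 CPM in pdp1/2/3;rrm1, against 1.1 and 1.19 CPM in pdp1/2/3 (log2 difference 1.37 ± 0.15, adjusted p = 0.000583). OPT9 had 2.46 and 2.92 CPM in pdp1/2/3;rrm1 and was listed at 0.0523 and 0 CPM in pdp1/2/3 (adjusted p = 0.000161). SUC5 was also higher in rrm1 against Col-0 (1.03, adjusted p = 0.00278), and OPT9 had 1.95 and 2.15 CPM in rrm1 and was listed at 0 CPM in Col-0.

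Genes lowered by rrm1 in both backgrounds were led by AT1G04280, annotated as a P-loop nucleoside triphosphate hydrolase. It had 9.34 and 9.07 CPM in pdp1/2/3;rrm1, against 36.6 and 49.3 CPM in pdp1/2/3, and 8.43 and 8.77 CPM in rrm1, against 41.5 and 39.7 CPM in Col-0. All 4 libraries with rrm1 lay between 8.43 and 9.34 CPM, and all 4 without it above 36 CPM. The log2 differences were -2.09 ± 0.12 (adjusted p = 1.22e-05) and -2.11 (adjusted p = 5.39e-06). AT1G65370, of the TRAF-like family, had 3.69 and 4.84 CPM in pdp1/2/3;rrm1, against 13.4 and 14.8 CPM in pdp1/2/3 (log2 difference -1.53 ± 0.13, adjusted p = 0.000161; -1.32 in rrm1 against Col-0). AT1G07040 had 15.9 and 16.1 CPM in pdp1/2/3;rrm1 and 34.8 and 38.6 CPM in pdp1/2/3, and the same 15.9 and 16.1 CPM in rrm1 against 38.1 and 34.6 CPM in Col-0. CID9, of a family of proteins that bind the poly(A)-binding protein, had 5.29 and 5.58 CPM in pdp1/2/3;rrm1, against 13.1 and 12.1 CPM in pdp1/2/3. For AT1G07040 and CID9 the log2 differences were -1.15 ± 0.08 and -1.08 ± 0.11 (adjusted p = 5.98e-05 and 0.000531), beside -1.13 and -1.22 in rrm1 against Col-0. In all of these genes the 2 groups did not overlap, but the rule that named them required this.

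**Figure D2:**
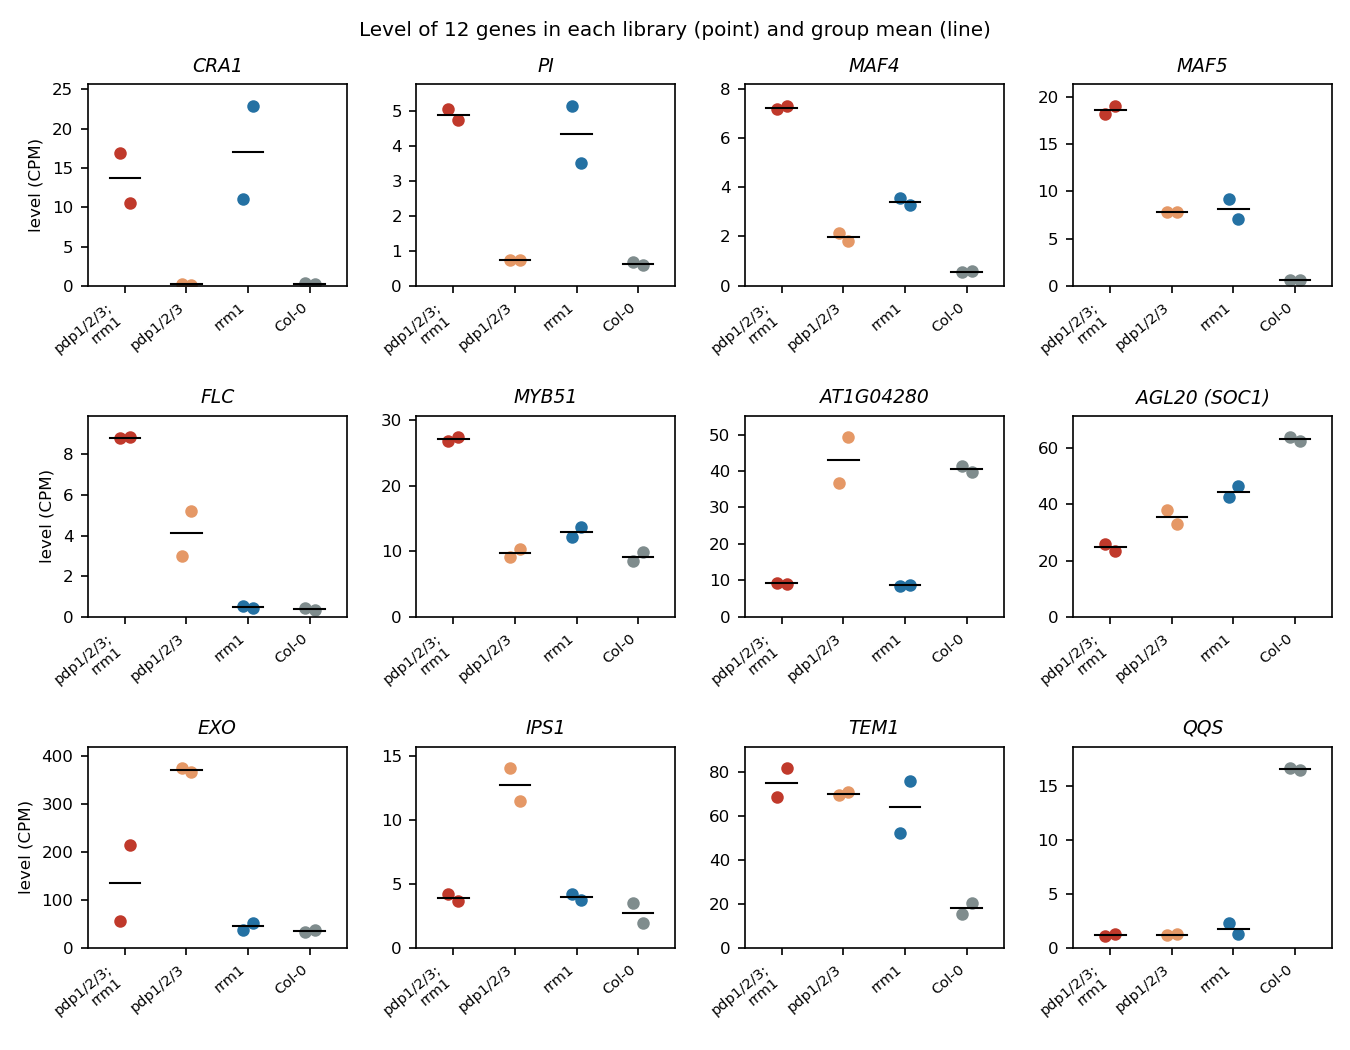
Level in CPM (vertical, linear from 0) of 12 genes in each library (points) of pdp1/2/3;rrm1, pdp1/2/3, rrm1 and Col-0, with the group mean as a line and 2 libraries per group. CRA1, PI and AT1G04280 differ in each pair with rrm1 in the same direction, EXO and IPS1 are highest in pdp1/2/3, and QQS is above 16 CPM in Col-0 alone.

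Among flowering genes, MAF4, MAF5 and FLC rose in pdp1/2/3;rrm1 against pdp1/2/3 and SOC1 fell. These were 3 of the 6 FLC clade genes tested, where 1.43% of all tested genes rose, and 0 of the 6 fell, with a median difference of 0.62, where the median of all tested genes was 0.0028. MAF4 (chromosome 5, 25992193 to 25996202) had 7.16 and 7.29 CPM in pdp1/2/3;rrm1, against 2.15 and 1.81 CPM in pdp1/2/3. The groups stood apart more than 3-fold (log2 difference 1.47 ± 0.13, adjusted p = 0.00019), and rrm1 against Col-0 gave 1.49, from 3.55 and 3.28 CPM in rrm1 and 0.564 and 0.583 CPM in Col-0. MAF5, its neighbour (25997504 to 26002619), had 18.16 and 19.0 CPM in pdp1/2/3;rrm1, against 7.81 and 7.82 CPM in pdp1/2/3 (log2 difference 1.15 ± 0.13, adjusted p = 0.0007). In rrm1 it had 9.20 and 7.07 CPM, against 0.564 and 0.635 CPM in Col-0 (2.504, adjusted p = 4.1e-06). The rrm1 difference of MAF5 was thus smaller on the log2 scale in the pdp1/2/3 background (difference between backgrounds -1.35 ± 0.18, adjusted p = 0.018). Reads that fit more than 1 gene of this clade cannot be placed with certainty, and how they were counted is not given in the sources used here.

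FLC itself (chromosome 5, 3173382 to 3179448, minus strand) had 8.81 and 8.86 CPM in pdp1/2/3;rrm1, against 2.99 and 5.23 CPM in pdp1/2/3. Both quadruple-mutant libraries were above both pdp1/2/3 libraries, whose own spread was wide (log2 difference 0.98 ± 0.19, adjusted p = 0.0187). In rrm1 FLC had 0.550 and 0.410 CPM, against 0.411 and 0.318 CPM in Col-0, and was not called (0.12, adjusted p = 0.793), but the difference between backgrounds did not pass either (0.86 ± 0.27, adjusted p = 0.221). The FLC call in the pdp1/2/3 background was lost without replicate 1 of the quadruple mutant (adjusted p = 0.114), without its replicate 2 (0.0757) or without replicate 1 of pdp1/2/3 (0.0822). The antisense gene AT5G01675 covers all of FLC in the annotation and averaged 0.0782 CPM, and as the strand is not given the reads of the pair cannot be told apart. MAF1 (FLM), MAF2 and MAF3 were not called, with log2 differences of 0.26, 0.10 and 0.03.

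SOC1 (AGL20), the MADS-box integrator that promotes flowering, had 25.9 and 23.4 CPM in pdp1/2/3;rrm1, against 38.1 and 33.0 CPM in pdp1/2/3. The groups did not overlap, and the log2 difference of -0.51 ± 0.09 (adjusted p = 0.0106) was close to that of -0.50 in rrm1 against Col-0 (adjusted p = 0.0084). SOC1 was the only one of 8 tested floral promoters called, where 2.96% of all tested genes were called. FT, the mobile flowering signal, was listed at 0 CPM in both pdp1/2/3;rrm1 libraries and had 0.157 and 0.103 CPM in pdp1/2/3, at or near the level of 3 counts, so no fold is given. The floral repressors TEM1 and TEM2 (RAV2) had 68.5 and 81.6, and 148 and 172 CPM in pdp1/2/3;rrm1, against 69.2 and 70.8, and 157 and 167 CPM in pdp1/2/3. These groups overlapped, and neither gene was called (0.09 ± 0.16 and -0.02 ± 0.18). In Col-0, by contrast, rrm1 raised both (1.77 and 1.64, adjusted p = 0.00015 and 0.00052), from means of 17.9 and 40.2 CPM to 63.9 and 125 CPM. Both were also higher in pdp1/2/3 than in Col-0 (1.93 and 2.02, adjusted p = 1.13e-05 and 1.89e-05), so that Col-0 alone was low. The difference between backgrounds was -1.68 for TEM1 and -1.67 for TEM2 (adjusted p = 0.018 and 0.0264). The clock gene CCA1, a MYB-like factor of the morning, had 52.7 and 46.3 CPM in pdp1/2/3;rrm1, against 73.3 and 62.3 CPM in pdp1/2/3 (-0.44 ± 0.10, adjusted p = 0.0329). CCA1 was the only one of 14 clock genes called, too few to read against the 2.96% called of all tested genes. CCA1 was also called lower in rrm1 against Col-0 (-0.47, adjusted p = 0.0219). The CCA1 call was lost without replicate 1 or 2 of the quadruple mutant or replicate 1 of pdp1/2/3 (adjusted p = 0.0607, 0.163 and 0.145) and without either Col-0 library (0.057 and 0.0566).

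A further set of genes was lower in pdp1/2/3;rrm1 than in pdp1/2/3 while most of them were not called in rrm1 against Col-0. Of those named below, IAA3 (SHY2), PIN3, PIL1, HAT1, EXL5 and THE1 were called higher in pdp1/2/3 than in Col-0 (log2 differences 1.63, 1.01, 2.07, 2.63, 2.81 and 1.47). So were HFR1, PIF3, IAA29, EXO, EXL3, FLA9, AT2G47440, XTH9 and XTH16, from 0.38 for PIF3 to 3.38 for EXO. Of the phosphate starvation genes, IPS1, PAP14, PEPC1, MGDC, PS2, PAP24 and SQD2 were called higher there, from 0.49 for SQD2 to 1.92 for IPS1. IAA14 and SPX1 were not called there (0.08 and 0.30). Mean levels of PIN3, HAT1 and IAA29 were 177, 93.35 and 7.52 CPM in pdp1/2/3;rrm1, beside 139, 27.2 and 9.02 CPM in Col-0. The difference between backgrounds itself was called for 0.301% of all tested genes, and for 2 of 20 auxin, 2 of 17 shade, 1 of 6 EXORDIUM and 2 of 26 phosphate starvation genes tested. It did not pass for others such as IAA29, HFR1, HAT1 and FLA9 (adjusted p = 0.166, 0.158, 0.0993 and 0.0611). Genes of auxin and shade responses are given first. Auxin works through Aux/IAA proteins, repressors that are made in response to the hormone and limit it, and PIF factors drive elongation in shade. Of 20 auxin response genes tested, 7 fell and 0 rose (median -0.28), and of 17 genes of shade avoidance and the PIF pathway, 5 fell and 0 rose (median -0.31), where 1.53% of all tested genes fell. Without replicate 1 of the quadruple mutant 4 of the auxin genes were called, all lower.

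Among the Aux/IAA repressors, IAA3 (SHY2) had 17.0 and 21.4 CPM in pdp1/2/3;rrm1, against 40.5 and 38.3 CPM in pdp1/2/3. The groups stood apart about 2-fold (log2 difference -1.01 ± 0.10, adjusted p = 0.000531), and rrm1 against Col-0 gave 0.05, from 12.3 and 12.8 CPM in rrm1 and 12.2 and 11.97 CPM in Col-0. The difference between backgrounds was -1.06 (adjusted p = 0.018). The gene AT1G04230 overlaps 41.5% of IAA3 in the annotation and averaged 9.62 CPM over the table. IAA14 had 24.4 and 22.9 CPM in pdp1/2/3;rrm1, against 43.1 and 38.8 CPM in pdp1/2/3, with almost the same difference in both backgrounds (-0.76 ± 0.08 and -0.73, adjusted p = 0.000579 and 0.00052). IAA29 had 7.79 and 7.24 CPM in pdp1/2/3;rrm1, against 14.9 and 25.8 CPM in pdp1/2/3 (-1.28 ± 0.19, adjusted p = 0.00537). The auxin efflux carrier PIN3 had 176 and 178 CPM in pdp1/2/3;rrm1, against 259 and 306 CPM in pdp1/2/3, and the groups did not overlap (-0.67 ± 0.09, adjusted p = 0.00206). The other called members were IAA19 and the GH3 enzymes GH3.3 and GH3.5 (WES1), which attach amino acids to auxin, at -0.65, -0.81 and -0.75 (adjusted p = 0.0424, 0.0141 and 0.0294). IAA2 was not called here (-0.19) but rose in rrm1 against Col-0 (0.60), and its difference between backgrounds was -0.79 (adjusted p = 0.0264).

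In the shade group, the bHLH factors PIL1 and HFR1 had 8.06 and 7.55, and 23.3 and 28.6 CPM in pdp1/2/3;rrm1, against 12.3 and 18.18, and 36.05 and 60.5 CPM in pdp1/2/3 (-0.86 ± 0.16 and -0.83 ± 0.18, adjusted p = 0.0141 and 0.0284). The homeodomain gene HAT1 had 63.4 and 123 CPM in pdp1/2/3;rrm1, against 184 and 162 CPM in pdp1/2/3 (-0.96 ± 0.23, adjusted p = 0.0461). PIF3 (-0.36) and PAR2 (-0.61) were the other calls. HB-2 (ATHB2), the homeodomain gene best known for its induction by shade, had 183 and 233 CPM in pdp1/2/3;rrm1 and 242 and 269 CPM in pdp1/2/3, which did not pass (-0.31 ± 0.16, adjusted p = 0.376). In rrm1 it had 52.6 and 75.2 CPM, and in Col-0 21.9 and 27.85 CPM. The count depended on the libraries in the fit: 0 of the 17 genes were called without replicate 1 of the quadruple mutant, 5 without its replicate 2, 3 and 1 without replicates 1 and 2 of pdp1/2/3, 3 without either rrm1 library and 2 without either Col-0 library.

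The EXORDIUM family, secreted proteins linked to cell expansion and brassinosteroid response, had the lowest median of the lists (-1.16 over 6 tested genes; the list was drawn up after the values were seen). EXO had 56.5 and 215 CPM in pdp1/2/3;rrm1, against 376 and 367 CPM in pdp1/2/3. The quadruple-mutant libraries differed from each other almost 4-fold, yet both lay below pdp1/2/3, while rrm1 and Col-0 were at 33.2 to 52.3 CPM (log2 difference -1.74 ± 0.41, adjusted p = 0.0425). EXO was named by a rule that required groups without overlap. EXL5 had 40.6 and 106 CPM in pdp1/2/3;rrm1, against 178 and 169 CPM in pdp1/2/3 (-1.39 ± 0.29, adjusted p = 0.0273). EXL3 had 72.3 and 99.9 CPM in pdp1/2/3;rrm1, against 158 and 170 CPM in pdp1/2/3 (-0.94 ± 0.13, adjusted p = 0.00332), and its difference between backgrounds was -1.07 (adjusted p = 0.0447). For EXO and EXL5 that difference did not pass (adjusted p = 0.165 and 0.0869). In all 3 the lower quadruple-mutant library was replicate 1. PHI-1 (EXL1), EXL2 and EXL4 were not called. The EXO call was lost without replicate 1 or replicate 2 of pdp1/2/3 (adjusted p = 0.11 and 0.118) and without any of the 4 libraries of rrm1 and Col-0 (0.0523 to 0.0648), and the EXL5 call without replicate 1 or 2 of pdp1/2/3 (0.0839 and 0.0768). Without either pdp1/2/3 library 1 of the 3 genes, EXL3, was still called.

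Other genes had lower levels in pdp1/2/3;rrm1 than in pdp1/2/3 with a wide spread in the quadruple mutant. THESEUS1 (THE1), a receptor kinase of cell wall sensing that was named after its values were seen, had 51.3 and 72.3 CPM in pdp1/2/3;rrm1, against 132 and 111 CPM in pdp1/2/3 (-0.98 ± 0.14, adjusted p = 0.00318). FLA9, an arabinogalactan protein with a fasciclin domain, had 66.9 and 122 CPM in pdp1/2/3;rrm1, against 189 and 198 CPM in pdp1/2/3 (-1.09 ± 0.20, adjusted p = 0.0141). AT2G47440, with tetratricopeptide repeats, had 94.8 and 187 CPM in pdp1/2/3;rrm1, against 330 and 315 CPM in pdp1/2/3 (-1.27 ± 0.22, adjusted p = 0.0106). In each of these replicate 1 of the quadruple mutant was the lower one. The groups did not overlap, which the rule that named FLA9 and AT2G47440 required. Of 25 genes for xyloglucan-modifying enzymes (XTH) and expansins, 2 fell and 0 rose, against 1.53% of all tested genes that fell. XTH9 had 64.7 and 95.8 CPM in pdp1/2/3;rrm1, against 120 and 142 CPM in pdp1/2/3 (-0.72 ± 0.16, adjusted p = 0.029), with a difference between backgrounds of -1.39 (adjusted p = 0.0264), and XTH16 fell by 0.69. Both calls were lost without replicate 1 of the quadruple mutant (adjusted p = 0.172 and 0.16) or replicate 2 of pdp1/2/3 (0.14 and 0.0975), that of XTH16 also without replicate 1 of pdp1/2/3 (0.0559), and that of FLA9 without replicate 2 of pdp1/2/3 (0.0537).

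Some genes of the phosphate starvation response also fell. Plants short of phosphate switch on a set of genes through the factor PHR1, including the RNA IPS1, which sequesters a miRNA, purple acid phosphatases, and enzymes that replace phospholipids by galacto- and sulfolipids. Of 26 such genes tested, 8 fell and 0 rose (median -0.38, where 1.53% of all tested genes fell). In rrm1 against Col-0 2 rose and 0 fell (median 0.14, where 2.74% of all tested genes rose). The list was drawn up after some of these values were seen. At an unadjusted p below 0.05, 15 of the 26 were lower.

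Among the fallen genes, 3 of 8 hold the P1BS motif, GNATATNC, known as the binding site of PHR1, in the 250 bases before the annotated start, as do 9 of the 26 tested (34.6%) and 5.43% of all tested genes. These 3 are shown, with the motif in capitals, as the letters behind that count. IPS1, PEPC1, MGDC, SPX1 and SQD2 have no match in this window. The motif and its genes were chosen after the values were seen, and a match is a description only. All are from the RefSeq genome TAIR10.1, minus strand, 5′ to 3′: PAP14 chr2:19266457-19266706, which overlaps the neighbouring gene AT2G46890, PAP24 chr4:12814457-12814706 and PS2 chr1:27466349-27466598.
PAP14: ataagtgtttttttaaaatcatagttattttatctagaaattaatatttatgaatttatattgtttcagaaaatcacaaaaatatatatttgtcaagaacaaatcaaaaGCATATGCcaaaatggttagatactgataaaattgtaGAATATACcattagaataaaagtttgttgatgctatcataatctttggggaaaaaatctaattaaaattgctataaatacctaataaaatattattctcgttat
PAP24: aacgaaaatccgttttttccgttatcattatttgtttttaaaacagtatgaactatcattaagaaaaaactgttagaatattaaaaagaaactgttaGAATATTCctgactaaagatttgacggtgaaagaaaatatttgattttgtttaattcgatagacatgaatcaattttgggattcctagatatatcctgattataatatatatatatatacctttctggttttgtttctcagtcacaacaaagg
PS2: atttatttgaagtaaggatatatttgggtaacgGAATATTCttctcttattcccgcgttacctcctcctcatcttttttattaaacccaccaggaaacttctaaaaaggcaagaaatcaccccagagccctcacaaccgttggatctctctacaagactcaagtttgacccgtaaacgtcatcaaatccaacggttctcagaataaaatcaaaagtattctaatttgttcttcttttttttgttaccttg

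IPS1 (AT3G09922) had 4.21 and 3.65 CPM in pdp1/2/3;rrm1, against 14.1 and 11.5 CPM in pdp1/2/3. The quadruple mutant was at the level of rrm1, with 4.25 and 3.74 CPM, and close to Col-0, with 3.54 and 1.91 CPM. The log2 difference was -1.48 ± 0.19 (adjusted p = 0.00186), and the difference between backgrounds -1.94 ± 0.26 (adjusted p = 0.018). The purple acid phosphatase gene PAP14 had 2.89 and 3.75 CPM in pdp1/2/3;rrm1, against 9.01 and 8.86 CPM in pdp1/2/3 (-1.21 ± 0.13, adjusted p = 0.000583), with -1.35 between backgrounds (adjusted p = 0.018). The phosphatase gene PEPC1 had 3.31 and 3.02 CPM in pdp1/2/3;rrm1, against 7.96 and 7.46 CPM in pdp1/2/3 (-1.06 ± 0.16, adjusted p = 0.00519). In all of these the groups differed more than 2-fold. They did not overlap, which a rule that named IPS1 and PAP14 required.

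The lipid genes MGDC, for a galactolipid synthase, and SQD2, for a sulfolipid synthase, had 4.21 and 2.502, and 91.9 and 87.0 CPM in pdp1/2/3;rrm1, against 7.91 and 7.51, and 129 and 127 CPM in pdp1/2/3 (-1.03 ± 0.16 and -0.51 ± 0.06, adjusted p = 0.0073 and 0.00139). PS2, PAP24 and SPX1, a phosphate sensor that binds PHR1, were at -0.81, -1.05 and -0.52 (adjusted p = 0.0321, 0.0492 and 0.0211). Calls of these last 3 were lost without replicate 1 of the quadruple mutant (adjusted p = 0.159, 0.163 and 0.156) or of pdp1/2/3 (0.144, 0.157 and 0.0943). Those of PS2 and PAP24 were also lost without replicate 2 of the quadruple mutant (0.105 and 0.17), and that of PAP24 without replicate 2 of pdp1/2/3 (0.111). PHR1 itself had 63.1 and 58.1 CPM in pdp1/2/3;rrm1 and 62.7 and 60.5 CPM in pdp1/2/3 and was not called. The phosphate transporter gene PHT1;1 had 39.95 and 48.1 CPM in pdp1/2/3;rrm1 and 45.0 and 58.7 CPM in pdp1/2/3, with overlapping groups and no call.

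**Figure D3:**
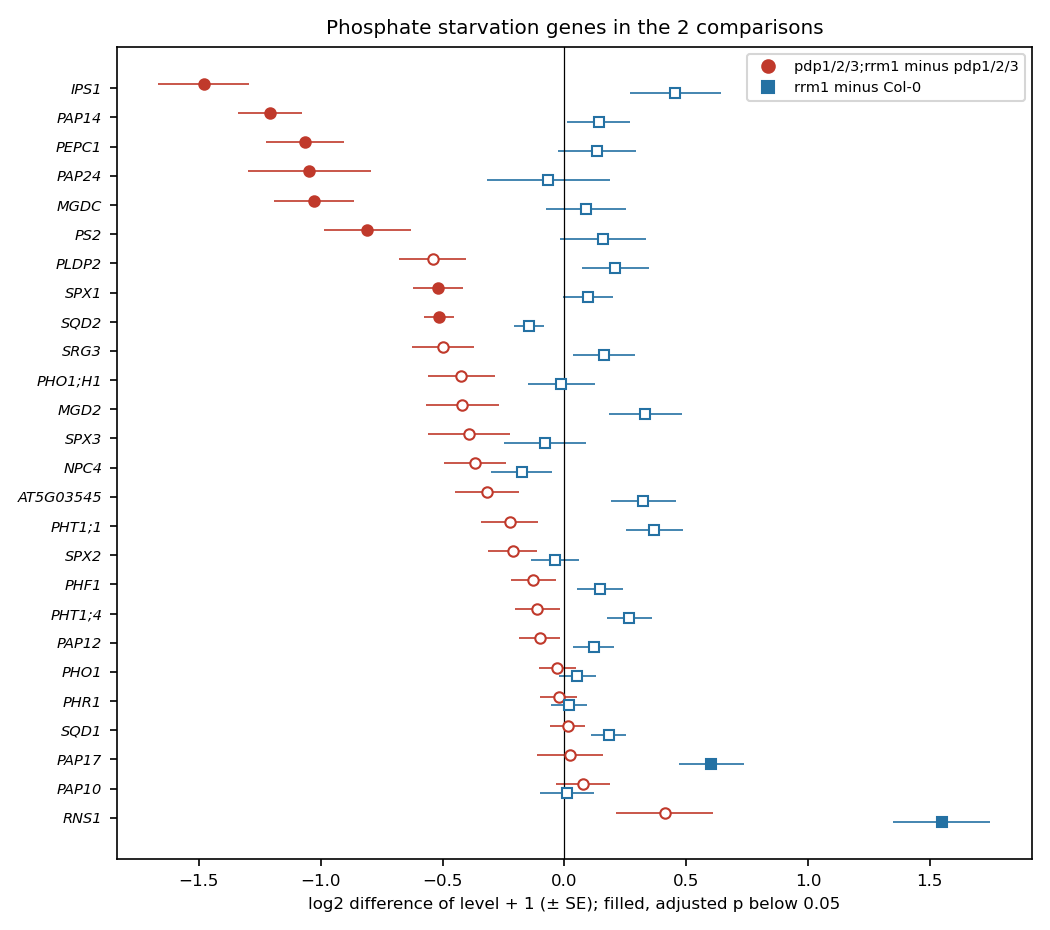
Log2 difference of level + 1 (horizontal, ± SE) of the 26 tested phosphate starvation genes (rows) in pdp1/2/3;rrm1 minus pdp1/2/3 (red circles) and rrm1 minus Col-0 (blue squares), filled where the adjusted p was below 0.05. The 8 filled red circles lie between -1.48 and -0.51, and the 2 filled blue squares, PAP17 and RNS1, lie above 0.

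Of 20 iron deficiency genes tested, 3 fell and 0 rose (median -0.21), where 1.53% of all tested genes fell. The count was 2 without either quadruple-mutant library or replicate 1 of pdp1/2/3, 6 without replicate 2 of pdp1/2/3 and 5 without either rrm1 library. BRUTUS (BTS), an E3 ligase that restrains the iron deficiency response, had 134 and 118 CPM in pdp1/2/3;rrm1, against 228 and 197 CPM in pdp1/2/3 (-0.75 ± 0.09, adjusted p = 0.00172; -0.39 in rrm1 against Col-0, adjusted p = 0.0387). OPT3, a transporter of iron in the phloem, had 124 and 106 CPM in pdp1/2/3;rrm1, against 216 and 174 CPM in pdp1/2/3 (-0.75 ± 0.11, adjusted p = 0.00373; -0.52 in rrm1 against Col-0, adjusted p = 0.0201). The bHLH factor gene BHLH101 had 7.21 and 6.41 CPM in pdp1/2/3;rrm1, against 18.1 and 12.1 CPM in pdp1/2/3 (-1.02 ± 0.18, adjusted p = 0.0121), though 6.45% of it overlaps a gene that averaged 1630 CPM, and the call was lost without replicate 1 or 2 of the quadruple mutant or replicate 1 of pdp1/2/3 (adjusted p = 0.0575, 0.0593 and 0.0572). The ferritin gene FER1, whose protein stores iron, had 150 and 194 CPM in pdp1/2/3;rrm1, against 81.9 and 87.3 CPM in pdp1/2/3, so that it stood higher by 1.01 ± 0.11 (adjusted p = 0.000583); it was named after its value was seen, is not in the list, and 63.6% of it overlaps the gene AT5G01595. The uptake genes IRT1 and FRO2 were not called, with 67.6 and 50.5, and 34.4 and 25.7 CPM in pdp1/2/3;rrm1 and 34.95 and 48.0, and 15.04 and 27.7 CPM in pdp1/2/3.

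Glucosinolates are sulfur-rich defence compounds, the aliphatic ones made from methionine under MYB28 and MYB29 and the indolic ones from tryptophan under MYB51 and MYB34. Of 22 genes tested, 6 fell and 1 rose in pdp1/2/3;rrm1 against pdp1/2/3, where 1.53% of all tested genes fell and 1.43% rose. MYB51 had 26.8 and 27.5 CPM in pdp1/2/3;rrm1, against 9.06 and 10.3 CPM in pdp1/2/3 (1.40 ± 0.11, adjusted p = 6.04e-05). The rise was larger than in Col-0, where rrm1 had 12.1 and 13.7 CPM, against 8.51 and 9.85 CPM in Col-0 (0.45, adjusted p = 0.0348; difference between backgrounds 0.95, adjusted p = 0.0264). MYB28 and MYB29 were called lower in both comparisons, at -0.39 and -0.76 in rrm1 against Col-0 (adjusted p = 0.01035 and 0.000231). They had 49.4 and 46.1, and 21.2 and 20.4 CPM in pdp1/2/3;rrm1, against 65.4 and 61.4, and 28.8 and 28.2 CPM in pdp1/2/3 (-0.40 ± 0.07 and -0.44 ± 0.07, adjusted p = 0.0123 and 0.00821). These groups did not overlap, though the MYB28 call was lost without replicate 2 of the quadruple mutant or replicate 1 of pdp1/2/3 (adjusted p = 0.0549 and 0.0517). The other calls were the chain-elongation genes MAM1 and MAM3 (IMS2) and the core gene CYP79F2, all of the aliphatic branch, and the myrosinase gene TGG2, at -0.43, -0.46, -0.39 and -0.39. CYP79B2 and CYP79B3 of the indolic branch, at 0.31 and 0.30, and MYB34, at 0.15, did not pass. Counts of lower genes were 2 and 3 without replicates 1 and 2 of the quadruple mutant and 2 without replicate 2 of pdp1/2/3, with MYB51 higher in each.

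Some cold-regulated and jasmonate genes rose. Of 18 cold-regulated genes tested, 5 rose and 0 fell (median 0.42; 1.43% of all tested genes rose), all 3 of the CBF factor genes among them, which switch on cold acclimation. CBF1 had 2.83 and 3.70 CPM in pdp1/2/3;rrm1, against 0.891 and 0.932 CPM in pdp1/2/3 (1.15 ± 0.19, adjusted p = 0.01). CBF2 had 5.35 and 7.50 CPM in pdp1/2/3;rrm1, against 3.35 and 2.95 CPM in pdp1/2/3 (0.82 ± 0.17, adjusted p = 0.0272). CBF3 (DREB1A) had 4.37 and 2.19 CPM in pdp1/2/3;rrm1, against 1.20 and 0.777 CPM in pdp1/2/3 (1.06 ± 0.22, adjusted p = 0.0236). All 3 are at low levels, and none of their groups overlapped. The dehydrin gene LTI30 and the cold-induced gene KIN1 rose by 0.60 and 0.57, whereas COR15A, COR47 and RD29A (LTI78), at 0.49, 0.13 and 0.08, were not called. Leaving out any 1 of the 4 libraries compared left 2 (without replicate 2 of the quadruple mutant) or 3 of the 18 called, all higher.

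Of 25 jasmonate genes, 2 rose and 0 fell (median 0.18), where 1.43% of all tested genes rose. VSP2, a vegetative storage protein induced by jasmonate, had 368 and 318 CPM in pdp1/2/3;rrm1, against 190 and 153 CPM in pdp1/2/3 (1.00 ± 0.11, adjusted p = 0.000829). LOX3, a lipoxygenase of jasmonate synthesis, had 44.9 and 42.4 CPM in pdp1/2/3;rrm1, against 31.2 and 20.9 CPM in pdp1/2/3 (0.75 ± 0.14, adjusted p = 0.0144). Neither gene was called in rrm1 against Col-0 (0.42 and 0.03), and neither difference between backgrounds passed (adjusted p = 0.169 and 0.16). In some other stress lists 1 gene was called, too few to read against the shares over all tested genes (1.43% higher and 1.53% lower). The heat shock gene HSP18.2 rose by 0.83 ± 0.13 (1 of 8 tested) and the flavonoid gene TT5, for chalcone isomerase, by 0.56 ± 0.12 (1 of 14). PCC1, a gene of pathogen response, fell by 0.95 ± 0.15 (1 of 16 of the salicylic acid and immune list). Levels of PCC1 were 1.498 and 2.03 CPM in pdp1/2/3;rrm1, against 4.82 and 3.88 CPM in pdp1/2/3. In rrm1 against Col-0 PCC1 was also called lower (-2.03, adjusted p = 3.05e-05), and its difference between backgrounds did not pass (1.08, adjusted p = 0.0561). HSP18.2 and TT5 were called higher in rrm1 against Col-0 too (0.67 and 0.60, adjusted p = 0.0155 and 0.0171). Without replicate 1 of the quadruple mutant the calls of LOX3, TT5 and PCC1 were lost (adjusted p = 0.104, 0.162 and 0.0539), and TT5 was also lost without its replicate 2 (0.0744) or replicate 2 of pdp1/2/3 (0.116).

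Touch and wound genes, which respond within minutes to handling or injury, were called in rrm1 against Col-0 and hardly in the pdp1/2/3 background. Of 21 tested, 1 rose and 0 fell in pdp1/2/3;rrm1 against pdp1/2/3 (median 0.07; 1.43% of all tested genes rose), whereas 14 rose and 0 fell in rrm1 against Col-0 (median 0.95; 2.74% of all tested genes rose). The difference between backgrounds was called for 2 of the 21, CAF1a and ERF104, where 0.301% of all tested genes were called. Its median over the list was -1.18. Neither call held under every alternative. CAF1a, a subunit of the deadenylase that shortens mRNA tails, had 15.1 and 21.3 CPM in pdp1/2/3;rrm1 and 25.7 and 18.0 CPM in pdp1/2/3, with overlapping groups. In rrm1 it had 32.7 and 48.4 CPM, against 5.68 and 11.5 CPM in Col-0, and the difference between backgrounds was -2.41 ± 0.38 (adjusted p = 0.0264). The ethylene response factor gene ERF104 had 18.9 and 36.5 CPM in pdp1/2/3;rrm1 and 32.1 and 32.8 CPM in pdp1/2/3, which overlapped, with -2.25 between backgrounds (adjusted p = 0.0415). The one called gene was the zinc finger gene CZF1 (SZF2), at 45.6 and 46.4 CPM in pdp1/2/3;rrm1, against 29.6 and 27.9 CPM in pdp1/2/3 (0.66 ± 0.13, adjusted p = 0.0192), and its call was lost without replicate 1 or 2 of the quadruple mutant (0.102 and 0.0749) or replicate 2 of pdp1/2/3 (0.0767). TCH4, a touch-induced XTH, had 99.8 and 431 CPM in pdp1/2/3;rrm1, so that its 2 libraries differed more than 4-fold, and 490 and 425 CPM in pdp1/2/3 (adjusted p = 0.315).

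QQS, a gene found in Arabidopsis alone that affects starch and is known for its variable DNA methylation, differed between rrm1 and Col-0 but not detectably between pdp1/2/3;rrm1 and pdp1/2/3. It had 1.122 and 1.303 CPM in pdp1/2/3;rrm1 and 1.15 and 1.24 CPM in pdp1/2/3, a difference of 0.01 ± 0.17. In rrm1 it had 2.25 and 1.23 CPM, against 16.6 and 16.4 CPM in Col-0 (-2.70, adjusted p = 1.57e-05). The 6 mutant libraries thus lay at 1.122 to 2.25 CPM and both Col-0 libraries above 16 CPM, and the difference between backgrounds was 2.71 (adjusted p = 0.00215). The receptor-like genes WAK1, RLP41 and AT1G35710 had a like pattern, with differences of 0.09, -0.13 and 0.21 in pdp1/2/3;rrm1 against pdp1/2/3 and of -1.26, -1.59 and -1.46 in rrm1 against Col-0.

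The share called over all tested genes, 2.96%, amounts to under 1 gene in a list of silencing genes, so counts of 0 say little of them. Among 23 genes for RNA-directed DNA methylation, limma called 0, and 1 was higher and 1 lower at an unadjusted p below 0.05. Of 14 genes for methylation maintenance and demethylation and of 14 Polycomb subunit genes it called 0, with 0 at an unadjusted p below 0.05. ROS1 (DML1), a demethylase whose level is known to follow DNA methylation, had 79.9 and 69.2 CPM in pdp1/2/3;rrm1 and 78.1 and 85.7 CPM in pdp1/2/3, with overlapping groups (-0.14 ± 0.08, adjusted p = 0.446). SDC, silenced by DNA methylation at its promoter, was listed at 0 CPM in both pdp1/2/3;rrm1 libraries and at 0.157 and 0.155 CPM in pdp1/2/3, about the level of 3 counts. Of the 24 photosynthesis genes and the 10 reference genes, 0 were called and 0 had an unadjusted p below 0.05.

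**Figure D4:**
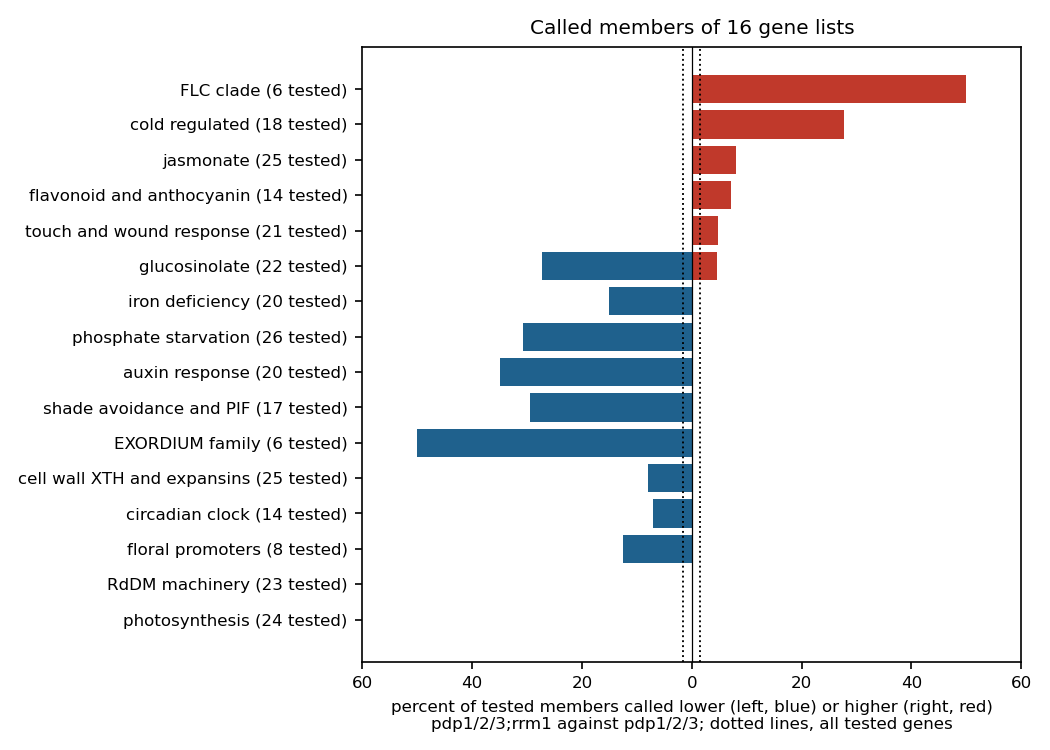
Percent of tested members called higher (red, right) or lower (blue, left) in pdp1/2/3;rrm1 against pdp1/2/3 for 16 gene lists, with the number tested beside each name and the shares over all tested genes (1.43% and 1.53%) as dotted lines. The FLC clade and cold-regulated genes lie to the right, and the EXORDIUM family, auxin, phosphate, shade and glucosinolate lists mostly to the left.

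Promoter motifs were counted in the called genes. In the 250 bases before the start, the G-box CACGTG was held by 9.42% of the genes called higher, 7.14% of those called lower and 7.35% of all tested, and the evening element AAAATATCT of the clock by 4.35%, 2.04% and 2.46%. The telo-box AAACCCT was held by 3.99% of higher and 3.74% of lower genes, against 6.26% of all tested. The W-box core, TTGACC or TTGACT, stood at 23.6%, 28.2% and 28.1%, the cold element, GCCGAC or ACCGAC, at 6.52%, 6.8% and 7.93%, the rapid stress element CGCGTT at 2.17%, 0.68% and 2.75%, and the GCC-box GCCGCC at 1.81%, 0.68% and 1.94%. P1BS was in 3.99%, 8.16% and 5.43%. Both strands were read, and these shares were not tested.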

How the data were processed

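RNA-seq values per gene of 8 libraries, 2 each of pdp1/2/3;rrm1, pdp1/2/3, rrm1 and Col-0, were analysed. What was deposited is a signal for each gene, normalised by the authors to near-equal library totals and mostly near whole numbers, with no further definition. Per the submitters' processing notes, HISAT2, featureCounts, edgeR and TAIR10 were used, without versions or roles. Read counts could not be recovered, so no count model was run.

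Values were divided by the mean library total (19222451) and multiplied by 1e+06 (CPM); 1 count was 0.0520 CPM and 3 counts, the level that a count of 0 allows, 0.156 CPM, for counting error only. Genes that reached 1 CPM in no fewer than 2 libraries were tested on log2(CPM + 1), which understates changes of low genes, with limma 3.58.1 (R 4.3.3; lmFit, eBayes with trend, 4 groups in 1 fit, residual df 4, prior df 7.82), Benjamini-Hochberg adjusted p below 0.05, two-sided. The fit was also run on simulated data with the same dispersion for every gene. That is a simpler setting than these libraries, so it does not give the error rate here. With 2 libraries per group an exact permutation test cannot pass 0.05.

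The members, gene lists and named genes were chosen with earlier results of these data known. Named were FLC, MAF4, MAF5, SOC1, FT, TEM1, TEM2, QQS, ROS1 and SDC; among called genes averaging 5 CPM or more whose groups do not overlap, the 12 highest and 12 lowest differences; up to 3 called members per list; and the 5 highest and 5 lowest called differences between backgrounds. This gave 68 genes, and 18 more were added after their values were seen, as were the phosphate starvation and EXORDIUM lists, the P1BS motif and the RY element. All 32548 identifiers matched RefSeq TAIR10.1, which may differ from the authors' build. Alternatives were the pseudocount, the filter, the scaling, the variance trend, the groups in the fit, a replicate block and leaving out each library. Replicate numbers did not pair the libraries.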

Additional observations from a re-analysis of the deposited data

Results flagged for a closer look

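The difference between the rrm1 effects in the 2 backgrounds, (pdp1/2/3;rrm1 minus pdp1/2/3) minus (rrm1 minus Col-0), passed limma's test for 21 of the named genes. Of these, 21 lost the call when no filter on low values was used and 20 without the variance trend, so none held under all alternatives. Leaving out replicate 3 of Col-0 ended 18 of the 21 calls, replicate 2 of rrm1 17, replicate 1 of pdp1/2/3;rrm1 10 and replicate 2 of pdp1/2/3 9, and QQS and AT1G35710 kept theirs without any 1 library.

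In 5 genes the rrm1 difference was more negative in Col-0. QQS had 2.7103 (adjusted p = 0.002153), AT1G35710, a leucine-rich repeat kinase gene, 1.6709 (0.003584), AT3G28540, a P-loop hydrolase gene, 1.5001 (0.04474), RLP41, a receptor-like protein gene, 1.4593 (0.02645), and WAK1, a wall-associated kinase gene, 1.351 (0.04474). MYB51 had a larger rise in pdp1/2/3, by 0.9479 (0.02643).

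Another 7 genes rose in rrm1 against Col-0 and were not called in pdp1/2/3;rrm1 against pdp1/2/3. CAF1a had -2.4069 (0.02643), ERF104 -2.2506 (0.04145), AT3G50800, of unknown function, -2.1859 (0.01816), TEM1 -1.6805 (0.01801), RAV2 (TEM2) -1.6672 (0.02643) and HB-2 -1.6188 (0.01801), and IAA2 had -0.7907 (0.02643). MAF5, which rose in both, had -1.3523 (0.01801).

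The others fell in pdp1/2/3;rrm1 against pdp1/2/3 and did not fall in rrm1 against Col-0. They were IPS1 at -1.9352 (0.01801), the pectin methylesterase gene ATPMEPCRB at -1.7444 (0.01801), PIL1 at -1.4494 (0.02643), XTH9 at -1.3913 (0.02643), PAP14 at -1.3498 (0.01801), EXL3 at -1.0668 (0.04474) and SHY2 (IAA3) at -1.0602 (0.01801). ATPMEPCRB had 19.0 and 21.3 CPM in pdp1/2/3;rrm1, against 46.6 and 29.4 CPM in pdp1/2/3, and 14.3 and 18.6 CPM in rrm1, against 8.00 and 8.63 CPM in Col-0. Groups of 2 libraries were too small to be searched for outlying libraries.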

How the results depend on the processing

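Of the 68 named genes called in pdp1/2/3;rrm1 against pdp1/2/3, 29 kept the call under every alternative that could test them, 18 for most and 17 for FBS1, MAF4, OPT9, PI, SUC5 and PAP14, whose means were under the 5 CPM limit: 14 higher (AT1G04650, CRA1, FBS1, FER1, LSH10, MAF4, MAF5, MBP1, MYB51, OPT9, PI, PR4, SUC5, VSP2) and 15 lower (AT1G04280, AT1G07040, AT1G65370, BTS, CID9, EXL3, IAA14, IPS1, MYB29, OPT3, PAP14, PIN3, SHY2, SQD2, THE1); none of the 68 changed direction. Of named genes that were not called, 8 changed sign when 1 library was left out: the range was -0.0872 to 0.2659 for WAK1, -0.0316 to 0.2182 for TEM1, -2.8672 to 0.0778 for PHI-1, -0.13 to 0.0845 for RAV2, -0.3385 to 0.0775 for RLP41, -0.0501 to 0.0674 for QQS, -0.5322 to 0.1805 for AT3G50800 and -0.7467 to 0.1637 for ERF104. The main counts were 570 for this comparison, 775 for rrm1 against Col-0 and 58 for the difference between backgrounds. Without a filter on low values they were 173, 270 and 2, without the variance trend 213, 419 and 3, and with only the 2 groups compared in the fit 377 and 1752. For the difference between backgrounds, a mean of at least 5 CPM gave 33 and scaling each library to its own total 129. Leaving out 1 library at a time gave 182 (without pdp1/2/3;rrm1 replicate 1) to 511, 206 to 1234 and 6 to 345; a lone library is then assumed to vary like the other groups. The cause was not tested. With a replicate block over the 3 mutant groups 431 genes were called, against 436 in the same fit with no block, and libraries of the same number did not deviate together (r of deviations -0.011, -0.039 and -0.1), so the numbers were not used as pairs. Depth limits genes near 0.156 CPM, such as FT and SDC, for which no difference was detectable.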

Other observations

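Some called genes belong to none of the lists above. AT1G49570, a peroxidase gene, had 15.4 and 14.5 CPM in pdp1/2/3;rrm1, against 5.87 and 6.22 CPM in pdp1/2/3 (log2 difference 1.18 ± 0.17, adjusted p = 0.00474), and 9.65 and 16.4 CPM in rrm1, against 13.5 and 12.8 CPM in Col-0, where it was not called (difference between backgrounds 1.23, adjusted p = 0.0601). The stress-induced F-box gene FBS1 had 8.76 and 8.60 CPM in pdp1/2/3;rrm1, against 3.98 and 2.69 CPM in pdp1/2/3 (1.17 ± 0.16, adjusted p = 0.0024). ACS8, an enzyme gene of ethylene synthesis, had 10.4 and 12.2 CPM in pdp1/2/3;rrm1, against 22.4 and 24.2 CPM in pdp1/2/3 (-0.99 ± 0.20, adjusted p = 0.0227), and 2.43 and 4.93 CPM in rrm1, against 2.26 and 1.96 CPM in Col-0. AT5G25240, annotated as stress induced, had 2.31 and 5.57 CPM in pdp1/2/3;rrm1, against 12.5 and 10.2 CPM in pdp1/2/3 (-1.40 ± 0.26, adjusted p = 0.0144). Without replicate 1 of the quadruple mutant the calls of ACS8 and AT5G25240 were lost (adjusted p = 0.16 and 0.0728), and without replicate 1 of pdp1/2/3 too (0.0571 and 0.0644). The ACS8 call was also lost without replicate 2 of the quadruple mutant (0.0504) or of pdp1/2/3 (0.0939).

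In primary metabolism, the nitrate uptake partner WR3 (NRT3.1) had 30.6 and 32.2 CPM in pdp1/2/3;rrm1, against 18.6 and 25.4 CPM in pdp1/2/3 (0.51 ± 0.12, adjusted p = 0.0366), and the nitrate reductase gene NIA2 fell by 0.34 ± 0.08 (adjusted p = 0.0492). The starch-degrading beta-amylase gene BAM2 rose by 0.38 ± 0.08 (adjusted p = 0.0267). BAM5 had 61.5 and 36.8 CPM in pdp1/2/3;rrm1 and 20.1 and 9.79 CPM in pdp1/2/3, which did not pass (1.69 ± 0.43, adjusted p = 0.0626), while rrm1 against Col-0 did (1.90, adjusted p = 0.0313). NIA2, WR3 and BAM2 lost their calls without replicate 1 of the quadruple mutant or of pdp1/2/3, and NIA2 and BAM2 also without replicate 2 of pdp1/2/3. The calls of NIA2 and WR3 were lost without replicate 2 of the quadruple mutant or either Col-0 library, and that of WR3 without either rrm1 library. Of 12 nitrate genes tested 1 rose and 1 fell, and of 14 starch genes 1 rose. These are too few to read against the shares over all tested genes (1.43% higher and 1.53% lower).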
